A study of Homo sapiens with 12 samples.

Results

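The BCL2 family decides at the outer mitochondrial membrane whether a cell starts intrinsic apoptosis, and its transcripts were followed here in 2 human uterine leiomyosarcoma (uLMS) cell lines exposed to a Notch pathway drug with or without chemotherapy. The family has 3 kinds of proteins. The survival proteins BCL2, BCL2L1 (BCL-XL) and MCL1 hold the effectors in check, the effectors BAX and BAK1 form pores that release cytochrome c, and the BH3-only proteins BCL2L11 (BIM), BBC3 (PUMA), PMAIP1 (NOXA), BID and BIK sense stress and either neutralise the survival proteins or activate the effectors. In tumor cells the balance of these 3 kinds is known to set how close a cell stands to apoptosis, and MCL1 and BCL2L1 are known as survival factors under drugs that arrest mitosis, such as docetaxel. The genes of the count table whose symbol equals one of these 10 names were taken, which gave 10 genes among 60649, and all 10 were among the 21114 genes that passed the filter on low counts.

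SK-UT-1B is an established line from a primary uLMS, and SK-LMS-1 is an established line from a vulvar metastasis of a uLMS, so each line stands for 1 tumor and a difference between the lines cannot be told apart from a difference between 2 patients' tumors. Cells were exposed for 72 h to DMSO (the vehicle), to MK-0752 alone (an inhibitor of gamma secretase, the protease that releases active Notch), or to MK-0752 with gemcitabine (a nucleoside analog) and docetaxel (a taxane), each at the concentration that inhibits 30% of viability (IC30), and the drug levels in the combination were lower than those of single agents. Of SK-UT-1B, 2 libraries came from DMSO (4-1 and 4-2) and 2 from the combination (3-1 and 3-3). Of SK-LMS-1, 4 came from DMSO, namely set 2 (2-1 and 2-3) and set 4 (4-1 and 4-2), with 2 libraries of MK-0752 (2-2 and 2-3) and 2 of the combination (4-1 and 4-2). The sources used here do not say what the first number of a library stands for, and in SK-UT-1B it differed between DMSO and the combination, so that set and treatment cannot be told apart there. Nothing says that the libraries of a group came from separate cultures, and the p-values measure only the spread between these libraries.

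Library totals ran from 25250057 to 40709885 counts. Between libraries of a line, low genes varied far more than the reading of counts alone would give, since 17.6% to 34.5% of the genes for which the other libraries of the line predicted 5 to 500 counts stood at 0, where counting error alone gives at most 0.0374%. VIM, a marker of mesenchymal cells, was at 11496 to 13009 CPM (counts scaled to a common library size) in SK-LMS-1 and at 2841 to 4434 CPM in SK-UT-1B. The 7 smooth muscle genes summed to 532 to 618 CPM in SK-LMS-1 and to 84.6 to 124 CPM in SK-UT-1B, but MYH11, the myosin of mature smooth muscle, was at 0 in 6 of 8 and 3 of 4 libraries. DES, another muscle marker, was at 0 in all 8 SK-LMS-1 libraries and at 1.37 to 9.76 CPM in SK-UT-1B. The 5 epithelial genes summed to 163 to 264 CPM in SK-LMS-1, through the keratins KRT8, KRT18 and KRT19, and to 0.292 to 1.14 CPM in SK-UT-1B, while CDH1 was at 0 in all 8 and in 3 of 4 libraries. The 3 endothelial genes and the 4 blood cell genes summed to at most 9.40 and 4.64 CPM in SK-LMS-1 and to at most 2.01 and 0.628 CPM in SK-UT-1B. CPM was taken on TMM-normalized library totals, CPM per kb divides it by the length of the MANE Select transcript so that genes can be compared with each other, and log2 fold changes (log2FC) come from edgeR.

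Positions are those of GENCODE v44 on hg38. BCL2 (ENSG00000171791.14) spans chr18:63123346-63320128 on the minus strand, BCL2L1 (ENSG00000171552.14) chr20:31664452-31723989 on the minus strand, and MCL1 (ENSG00000143384.14) chr1:150560895-150579738 on the minus strand. BAX (ENSG00000087088.20) spans chr19:48954815-48961798 on the plus strand and BAK1 (ENSG00000030110.13) chr6:33572547-33580293 on the minus strand. BCL2L11 (ENSG00000153094.24) spans chr2:111119378-111168444 on the plus strand, BBC3 (ENSG00000105327.18) chr19:47220822-47232766 on the minus strand, and PMAIP1 (ENSG00000141682.12) chr18:59899996-59904305 on the plus strand. BID (ENSG00000015475.19) spans chr22:17734138-17774770 on the minus strand and BIK (ENSG00000100290.3) chr22:43110750-43129712 on the plus strand. Exons of other genes lie on parts of some of them. BCL2L11 shared 727 bases with the long noncoding RNA MIR4435-2HG on the opposite strand, which had 1137 to 1714 counts in SK-LMS-1 and 142 to 456 in SK-UT-1B. BCL2L1 shared 1735 bases with the opposite-strand RNA ABALON, which had at most 37 counts, and MCL1 shared 43 with ADAMTSL4, at 37 to 532 counts. The library kit keeps the strand, but the strand setting of the counting is not given in the sources used here, so the split of reads between these pairs is uncertain.

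Both lines carried transcripts of every member but BIK in every library, and the leading survival gene per kb differed between the lines. After DMSO, SK-LMS-1 held 6.41-, 3.61- and 6.79-fold more BCL2L1, BCL2L11 and PMAIP1 transcript than SK-UT-1B, and 5.08-, 2.50- and 3.05-fold less BCL2, BAK1 and BBC3. A member was called when its edgeR adjusted p was under 0.05 and its absolute log2FC was at least 1, the thresholds of the study. Of the 10 members 6 were called, against 31.1% of all tested genes, with 3 higher in SK-LMS-1, against 17.0%, and 3 lower, against 14.1%. After the combination 5 members were called, against 25.4% of tested genes, 3 higher against 15.6% and 2 lower against 9.88%. No member was called after any treatment, against 0.0237% to 0.559% of tested genes. The plot of all members by library shows these patterns.

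**Figure D1:**
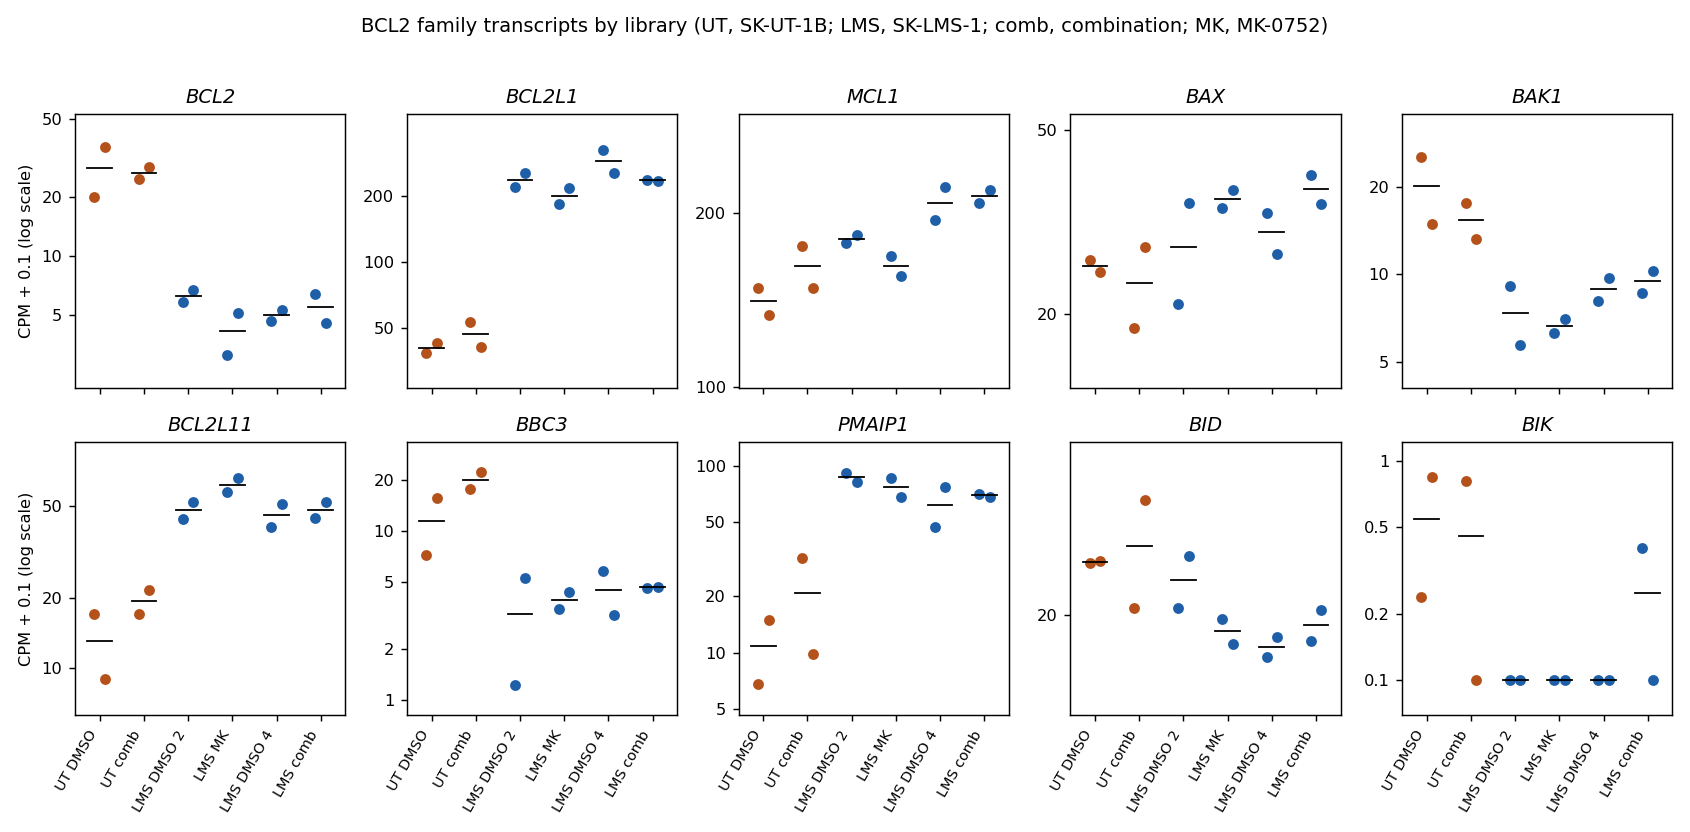
Level of each family member in each of the 12 libraries, as CPM + 0.1 on a log scale that differs between panels. Points are single libraries (brown SK-UT-1B, blue SK-LMS-1) and black lines are group means of 2 libraries. BCL2L1, BCL2L11 and PMAIP1 are higher in every SK-LMS-1 library than in every SK-UT-1B library, BCL2, BAK1 and BBC3 are lower, and BIK is at 0 in 7 of the 8 SK-LMS-1 libraries.

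BCL2L1, whose protein BCL-XL binds BAX, BAK1 and several BH3-only proteins, had the smallest adjusted p of the family between the lines. SK-UT-1B held 38.7 and 42.7 CPM of it after DMSO, and SK-LMS-1 held 219, 253, 325 and 254 CPM in DMSO libraries 2-1, 2-3, 4-1 and 4-2. Every SK-LMS-1 library was above every SK-UT-1B library, with the nearest pair at 183 and 53.5 CPM. The log2FC was 2.68 ± 0.18 (SE) after DMSO, with an edgeR adjusted p of 1.55e-10, and 2.31 ± 0.18 after the combination, with an adjusted p of 3.93e-09. After the combination the level was 53.5 and 40.9 CPM in SK-UT-1B and 236 and 234 CPM in SK-LMS-1, and after MK-0752 it was 183 and 218 CPM. These values lie close to their controls, and the intervals bound any change to less than 2-fold in all 3 treatment comparisons. The log2FC was 0.21 (95% interval -0.16 to 0.58) for the combination in SK-UT-1B, -0.24 (-0.60 to 0.13) for MK-0752, and -0.30 (-0.67 to 0.07) for the combination in SK-LMS-1.

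BCL2, the founding survival gene, ran the other way between the lines. It was at 19.9 and 35.8 CPM in SK-UT-1B after DMSO, and at 5.70, 6.59, 4.58 and 5.18 CPM in the DMSO libraries of SK-LMS-1. All 8 SK-LMS-1 libraries, at 3.03 to 6.59 CPM, were below all 4 SK-UT-1B libraries, at 19.9 to 35.8 CPM. The log2FC was -2.34 ± 0.35 (SE) after DMSO (edgeR adjusted p of 1.41e-05) and -2.29 ± 0.44 after the combination (adjusted p of 0.000316). No treatment comparison of BCL2 was called. The combination gave 24.5 and 28.4 CPM in SK-UT-1B and 6.34 and 4.47 CPM in SK-LMS-1, and MK-0752 gave 3.03 and 5.05 CPM. The lowest of these treatment values was the log2FC of -0.60 after MK-0752, whose interval (-1.49 to 0.28) still allows a decrease of more than 2-fold, and it ranged from -1.02 without MK-0752 library 2-3 to -0.28 without 2-2.

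MCL1, whose short-lived protein is bound by NOXA, was the most even survival gene. SK-UT-1B held 148 and 133 CPM after DMSO, and SK-LMS-1 held 177, 183, 194 and 221 CPM. The groups did not overlap after DMSO, but the log2FC of 0.46 ± 0.14 (SE) was under the fold threshold. Its edgeR adjusted p was 0.00986, so that 7 of the 10 members differed between the lines at any fold, against 41.0% of tested genes. That adjusted p was 0.109 over the same genes without SK-UT-1B DMSO library 4-2, and with the filter on low counts applied again it was above 0.05 in 5 of the 6 fits without a library, at up to 0.180. After the combination the same difference was 0.40 ± 0.15 with an adjusted p of 0.0544, and then 5 members were under the threshold, against 32.9%. Treated libraries of MCL1 held 175 and 148 CPM in SK-UT-1B, 208 and 219 CPM in SK-LMS-1 after the combination, and 169 and 155 CPM after MK-0752. MCL1 was the most tightly bounded member, with treatment log2FC of 0.20 (-0.12 to 0.52), 0.04 (-0.29 to 0.36) and -0.15 (-0.48 to 0.17) in that order.

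Per transcript length, the survival compartment was led by different genes in the lines. BCL2L1 made up 61.9% to 71.7% of the summed CPM per kb of the 3 survival genes in the 8 SK-LMS-1 libraries and 27.1% to 30.3% in the 4 SK-UT-1B libraries. MCL1 made up 27.9% to 37.7% and 60.7% to 67.7%, and BCL2 made up 0.379% to 0.658% and 5.19% to 9.37%. The ranges of the lines do not overlap for any of the 3. The level of BCL2L1 was 99.4 to 189 times that of BCL2 in SK-LMS-1 and 3.19 to 5.83 times in SK-UT-1B. With the union of all annotated exons in place of the MANE Select transcript the median share of BCL2L1 was 63.5% in place of 64.2% in SK-LMS-1 and 28.4% in place of 28.8% in SK-UT-1B. These shares weigh transcripts only, not proteins, and the leading survival gene was the same in every library of a line, treated or not.

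**Figure D2:**
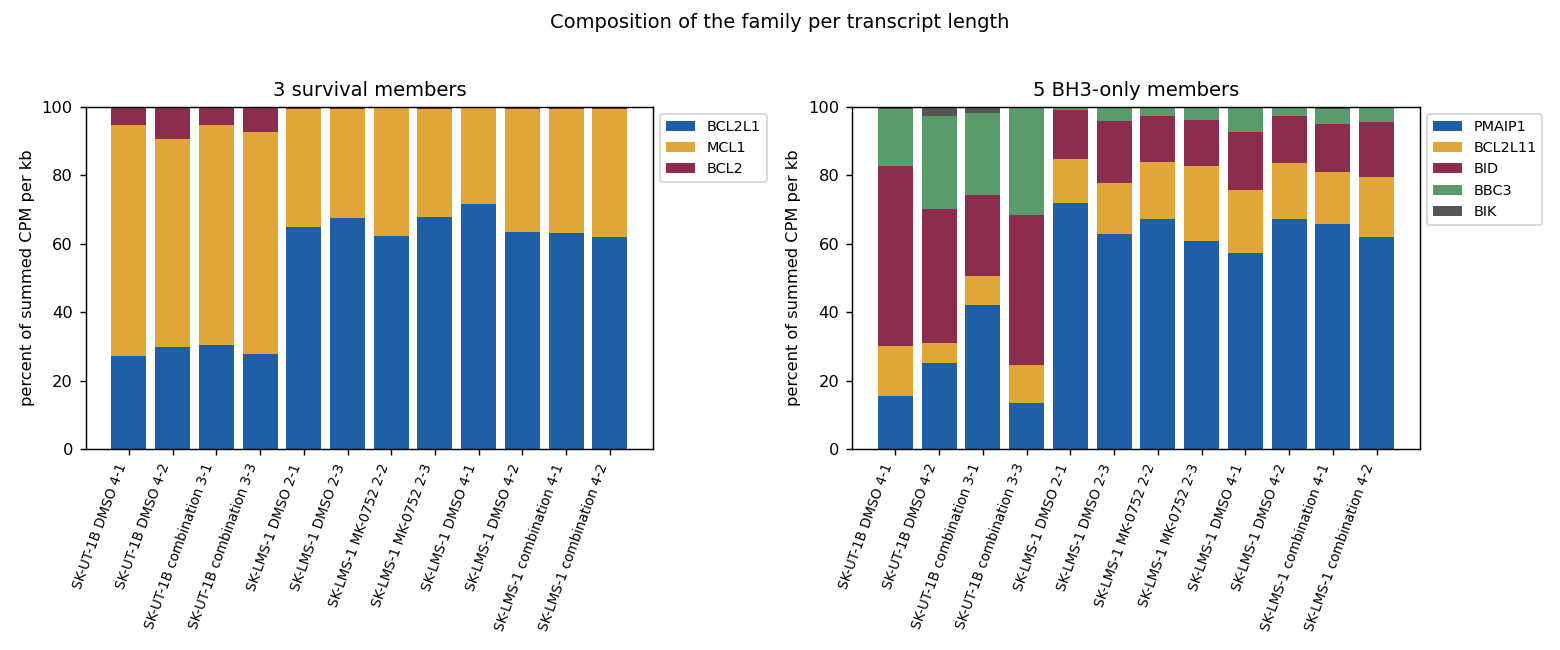
Composition of the survival genes (left) and of the BH3-only genes (right) in each library, as percent of the summed CPM per kb of transcript. BCL2L1 is the largest survival share in all 8 SK-LMS-1 libraries and MCL1 in all 4 SK-UT-1B libraries, and PMAIP1 is the largest BH3-only share in all SK-LMS-1 libraries and, at this length (MANE Select), in combination library 3-1 of SK-UT-1B.

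The effectors split. BAX, which moves from the cytosol to the mitochondria on activation, was at 26.0 and 24.6 CPM in SK-UT-1B after DMSO and at 20.9, 34.6, 32.9 and 26.8 CPM in SK-LMS-1. These values overlap, and the log2FC between the lines was 0.19 ± 0.25 (SE) after DMSO. After the combination BAX was at 18.6 and 27.8 CPM in SK-UT-1B and at 39.8 and 34.4 CPM in SK-LMS-1, with a log2FC of 0.68 ± 0.29 between the lines and an edgeR adjusted p of 0.0820. After MK-0752 it was at 33.8 and 37.0 CPM. Its treatment log2FC were -0.13 (-0.73 to 0.48) in SK-UT-1B, 0.35 (-0.25 to 0.95) for MK-0752 and 0.31 (-0.29 to 0.92) for the combination in SK-LMS-1. With 1 library left out, the value for MK-0752 ranged from 0.03 to 0.76.

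BAK1, which resides at the mitochondria, was at 25.2 and 14.7 CPM in SK-UT-1B after DMSO and at 8.97, 5.58, 7.99 and 9.59 CPM in SK-LMS-1, and no library of one line overlapped the other. The log2FC was -1.32 ± 0.36 (SE), with an edgeR adjusted p of 0.00539. Without SK-UT-1B DMSO library 4-1 it was -0.94 with an adjusted p of 0.135 over the same genes, and -0.92 with 0.229 when the filter on low counts was applied again to the 11 libraries left, so the call rests on that library. After the combination the levels were 17.4 and 13.1 CPM against 8.53 and 10.1 CPM, with a log2FC of -0.71 ± 0.43 and an adjusted p of 0.235. BAK1 was at 6.17 and 6.90 CPM after MK-0752. The treatment log2FC were -0.39 (-1.28 to 0.51), -0.16 (-1.06 to 0.75) and 0.09 (-0.81 to 0.98) in the same order of comparisons. Per kb of the MANE Select transcript, BAX was 6.37 to 16.9 times as abundant as BAK1 in SK-LMS-1 and 2.82 to 5.78 times in SK-UT-1B. The order of these genes in SK-UT-1B depends on the length, since per kb of the exon union the ratio was 1.99 to 5.31 in SK-LMS-1 and 0.882 to 1.81 in SK-UT-1B, with BAX below BAK1 in 2 of the 4 libraries (DMSO 4-1 and combination 3-1).

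Promoters are shown for 4 of the 6 members called after DMSO, whose levels split the lines in every library. BAK1, which had the smallest difference of the 6, and BCL2 are not shown, and the calls of BAK1 and BBC3 are lost without single libraries, as given with their values. The sequences are upstream of the RefSeq start on GRCh38.p14, written 5′ to 3′ on the gene's strand, and stop where an annotated exon of the gene begins. Capitals mark matches on either strand to a GC box (GGGCGG), an E box (CACGTG), a cyclic AMP response element (TGACGTCA), an AP-1 site (TGAGTCA) or a FOXO site (TGTTTAC). No motif of the set contains another. Of the 10 members, 8 were in the promoter table, MCL1 and BIK were not, and the BCL2 window starts within an annotated exon. Of the 2 starts of BCL2L1 in that table the more upstream one was used.
BCL2L11, chr2:111120664-111120913, plus strand: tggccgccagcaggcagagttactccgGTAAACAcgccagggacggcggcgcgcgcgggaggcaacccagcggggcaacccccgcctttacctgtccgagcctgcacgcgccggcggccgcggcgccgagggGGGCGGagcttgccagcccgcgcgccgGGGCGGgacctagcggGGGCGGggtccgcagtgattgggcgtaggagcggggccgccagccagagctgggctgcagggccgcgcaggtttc
PMAIP1, chr18:59899746-59899995, plus strand: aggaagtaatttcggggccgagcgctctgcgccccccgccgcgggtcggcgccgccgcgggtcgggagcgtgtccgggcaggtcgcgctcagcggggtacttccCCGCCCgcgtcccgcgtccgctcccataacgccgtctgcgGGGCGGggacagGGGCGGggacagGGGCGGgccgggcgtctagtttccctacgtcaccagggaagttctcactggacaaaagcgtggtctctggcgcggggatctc
BCL2L1, chr20:31723990-31724213, minus strand: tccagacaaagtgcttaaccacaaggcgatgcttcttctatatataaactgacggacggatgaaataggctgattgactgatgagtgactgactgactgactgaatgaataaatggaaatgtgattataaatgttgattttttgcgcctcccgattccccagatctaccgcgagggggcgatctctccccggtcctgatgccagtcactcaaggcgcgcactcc
BBC3, chr19:47232767-47232917, minus strand: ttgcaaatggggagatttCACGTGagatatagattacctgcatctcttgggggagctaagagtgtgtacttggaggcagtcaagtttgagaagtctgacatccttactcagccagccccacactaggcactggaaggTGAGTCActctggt

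The BCL2L11 and PMAIP1 windows hold 3 and 4 GC boxes, a motif found in 42.6% of all 35116 promoter windows of 250 bases. The BCL2L11 window also holds 1 FOXO site, found in 2.98% of such windows. The BBC3 window of 151 bases holds 1 E box and 1 AP-1 site, found in 3.01% and 2.20% of windows of that length, and no GC box. None of the 5 motifs is in the BCL2L1 window of 224 bases. A match describes the letters only.

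Among the BH3-only genes, PMAIP1, whose protein NOXA binds MCL1, was the most abundant per kb in all 8 SK-LMS-1 libraries. After DMSO it was at 6.72 and 14.8 CPM in SK-UT-1B and at 91.0, 82.3, 46.8 and 77.0 CPM in SK-LMS-1. The lowest SK-LMS-1 library, at 46.8 CPM, was above the highest SK-UT-1B library, at 31.9 CPM. The log2FC between the lines was 2.76 ± 0.55 (SE) after DMSO, with an edgeR adjusted p of 0.00399. After the combination it was 1.74 ± 0.57 with an adjusted p of 0.0481, which became 0.0919 without the filter on low counts and 0.0603 with only the libraries of that comparison. Over the same genes that call was lost without SK-LMS-1 combination library 4-1 (adjusted p of 0.138), 4-2 (0.130) or SK-UT-1B combination library 3-3 (0.0630), while it held in all 4 fits with the filter applied again. The size rests on single SK-UT-1B libraries, with a log2FC of 3.45 after DMSO without library 4-2, and of 2.82 and 1.12 after the combination without library 3-1 and without 3-3. PMAIP1 made up 57.4% to 72.0% of the BH3-only CPM per kb in SK-LMS-1 and 13.4% to 42.2% in SK-UT-1B. The level of MCL1 per kb was 0.936 to 1.99 times that of PMAIP1 in SK-LMS-1 and 2.64 to 10.6 times in SK-UT-1B, again without overlap. On the union of exons these ranges were 65.3% to 78.4% and 19.4% to 52.1% for the share, and 0.684 to 1.46 and 1.93 to 7.75 for the ratio.

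PMAIP1 in SK-UT-1B had the largest treatment log2FC of any member, and its 2 combination libraries disagreed. Library 3-1 held 31.9 CPM (1168 counts) and library 3-3 held 9.69 CPM (273 counts), against 6.72 and 14.8 CPM after DMSO, so that 3-3 lies between the DMSO libraries. The log2FC was 0.95 ± 0.56 (95% interval -0.35 to 2.25) with an edgeR adjusted p of 0.659. Leaving out DMSO library 4-2 gave 1.64 and leaving out combination library 3-3 gave 1.56, while leaving out combination library 3-1 gave -0.19. With the filter on low counts applied again the first 2 were called, with edgeR adjusted p of 7.00e-05 and 9.16e-08, but over the same genes they had 0.494 and 0.0326, so that only the fit without 3-3 was called both ways. The lone library of a group is assumed in those fits to vary like the other groups. The levels of 3 more genes in these libraries are given beside it, and all 3 were picked after their values were seen. ATF4, a transcription factor of the integrated stress response, was at 520 CPM in 3-1 and 98.2 CPM in 3-3, against 194 and 213 CPM after DMSO. DDIT3 (CHOP), which acts downstream of ATF4, was at 19.5 and 1.70 CPM, against 3.63 and 3.34 CPM, and the death receptor gene TNFRSF10B was at 163 and 103 CPM, against 78.4 and 84.3 CPM. ATF4 and DDIT3 were above both DMSO libraries in 3-1 and below both in 3-3, while TNFRSF10B was above them in both. Their part in the PMAIP1 value was not tested. In SK-LMS-1 PMAIP1 was at 70.5 and 68.4 CPM after the combination and at 86.0 and 67.9 CPM after MK-0752, with log2FC of 0.17 (-1.10 to 1.43) and -0.17 (-1.44 to 1.09).

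**Figure D3:**
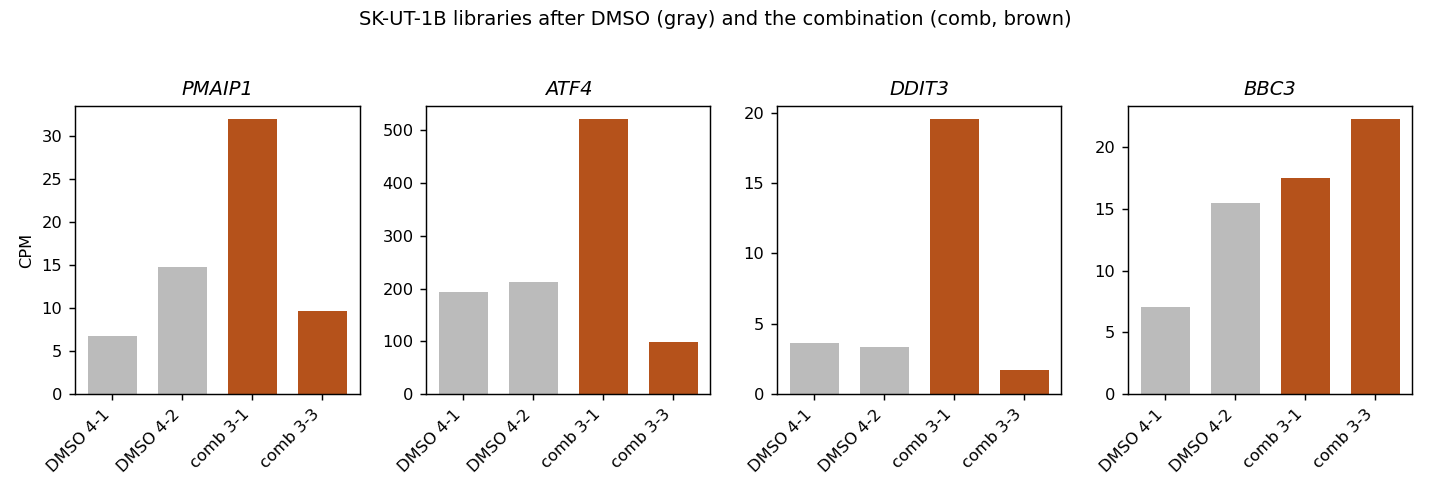
CPM of PMAIP1, ATF4, DDIT3 and BBC3 in the 4 SK-UT-1B libraries, gray after DMSO and brown after the combination, with the axis of each panel starting at 0. PMAIP1, ATF4 and DDIT3 are highest in combination library 3-1, at 31.9, 520 and 19.5 CPM, while BBC3 is highest in 3-3, at 22.2 CPM.

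BCL2L11, whose protein BIM binds all survival proteins and activates BAX, was at 17.0 and 8.83 CPM in SK-UT-1B after DMSO and at 43.6, 51.7, 40.3 and 50.5 CPM in SK-LMS-1. All 8 SK-LMS-1 libraries, at 40.3 to 65.5 CPM, were above all 4 SK-UT-1B libraries, at 8.83 to 21.5 CPM. The log2FC was 1.85 ± 0.27 (SE) after DMSO (edgeR adjusted p of 9.73e-06) and 1.32 ± 0.28 after the combination (adjusted p of 0.00103). In SK-UT-1B the combination libraries held 17.0 and 21.5 CPM, with a log2FC of 0.58 (95% interval -0.01 to 1.17), an unadjusted edgeR p of 0.0550 and an adjusted p of 0.497. It was 0.18 without DMSO library 4-2 and 1.10 without 4-1, where the adjusted p was 0.0749 with the filter applied again and 0.155 over the same genes. DMSO library 4-1 and combination library 3-1 held nearly equal levels. SK-LMS-1 held 57.2 and 65.5 CPM after MK-0752, both above the 4 DMSO libraries, but the log2FC of 0.36 (-0.22 to 0.95) had an adjusted p of 0.806. After the combination it held 44.0 and 51.8 CPM, with a log2FC of 0.08 (-0.51 to 0.66).

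BBC3, a p53 target whose protein PUMA binds all survival proteins, was at 7.06 and 15.4 CPM in SK-UT-1B after DMSO and at 1.12, 5.14, 5.68 and 3.06 CPM in SK-LMS-1. The counts behind these levels were 204 and 582 in SK-UT-1B and 39 to 142 in SK-LMS-1. No SK-LMS-1 library reached the lowest SK-UT-1B library. The log2FC was -1.61 ± 0.52 (SE) after DMSO, with an edgeR adjusted p of 0.0170, but it was -0.94 without SK-UT-1B DMSO library 4-2, with an adjusted p of 0.312 over the same genes and 0.326 with the filter applied again. Over the same genes the call was also lost without SK-LMS-1 DMSO library 2-1 (-1.25, adjusted p of 0.0538) or 4-2 (-1.42, 0.0569), and the adjusted p was 0.0699 with only the libraries of the comparison. Without SK-LMS-1 DMSO library 2-3 the log2FC was -2.35. After the combination the levels were 17.5 and 22.2 CPM against 4.48 and 4.55 CPM, with a log2FC of -2.14 ± 0.65 and an adjusted p of 0.0142. Over the same genes that call was lost without SK-LMS-1 combination library 4-1 (adjusted p of 0.10) or 4-2 (0.0965) or SK-UT-1B combination library 3-3 (0.0614), at log2FC of -2.12, -2.15 and -1.95. With the filter applied again these adjusted p were 0.0506, 0.0503 and 0.0426. In SK-UT-1B both combination libraries were above both DMSO libraries. The log2FC was 0.82 (-0.48 to 2.12), with an edgeR adjusted p of 0.729. With 1 library left out it ranged from 0.32 to 1.49, the latter without DMSO library 4-2. After MK-0752 the level was 3.37 and 4.24 CPM, and the log2FC in SK-LMS-1 was 0.29 (-1.03 to 1.60) for MK-0752 and 0.05 (-1.26 to 1.36) for the combination.

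BID, which links death receptors to the mitochondria once caspase-8 has cut it, was the BH3-only gene with the smallest difference between the lines. It was at 26.2 and 26.4 CPM in SK-UT-1B after DMSO and at 20.7, 27.2, 15.9 and 17.7 CPM in SK-LMS-1, which overlap. The log2FC was -0.39 ± 0.27 (SE) after DMSO and -0.60 ± 0.32 after the combination, with edgeR adjusted p of 0.260 and 0.171. With 1 library left out, the log2FC after the combination ranged from -0.98 to -0.13. Treated libraries held 20.6 and 36.5 CPM in SK-UT-1B, 17.3 and 20.4 CPM in SK-LMS-1 after the combination, and 19.5 and 17.1 CPM after MK-0752. The treatment log2FC were 0.12 (-0.54 to 0.78), 0.16 (-0.50 to 0.83) and -0.39 (-1.05 to 0.27) in that order. BID was the largest BH3-only share per kb in 3 of the 4 SK-UT-1B libraries, at 39.4% to 52.6%, but on the union of exons in 2 of the 4, with PMAIP1 ahead of it in DMSO library 4-2 and combination library 3-1.

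BIK, a BH3-only protein of the endoplasmic reticulum, was close to the limit of detection. It had 4 and 28 counts in SK-UT-1B after DMSO and 26 and 0 after the combination. In SK-LMS-1 it had 0 counts in 7 of 8 libraries and 10 in combination library 4-1. A count of 0 allows up to 3 counts, or 0.0777 to 0.123 CPM in the SK-LMS-1 libraries, for counting error only, and the 2 libraries of a group differed by more than that in 3 of the 6 groups. No fold change is given for BIK, and it was not called in the main fit of any comparison. Between the lines after DMSO, 7 members had an edgeR adjusted p under 0.05 when no fold threshold was set, and the added member was MCL1, not BIK. MCL1, BAX and BID stayed under the fold threshold in every setting, and no setting that kept this threshold added a member there.

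**Figure D4:**
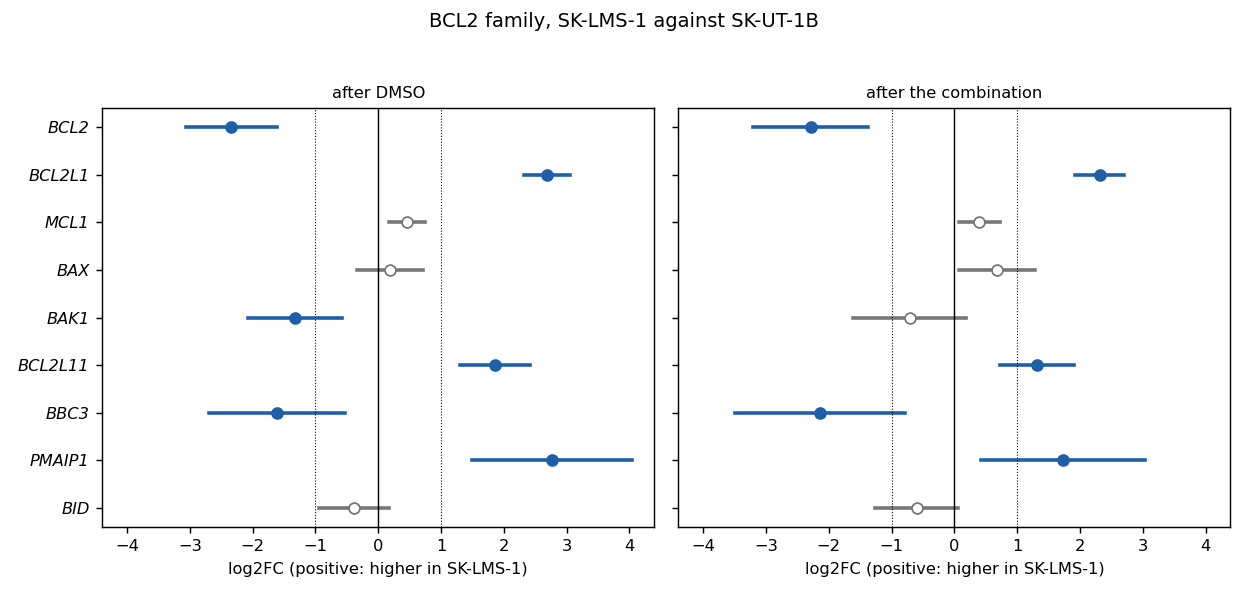
Difference between the lines after DMSO (left) and after the combination (right) for the 9 members other than BIK, as log2FC from edgeR with 95% intervals. Positive values are higher in SK-LMS-1, filled blue points are called, and dotted lines mark a log2FC of -1 and 1. BCL2L1, BCL2L11 and PMAIP1 lie to the right and BCL2 and BBC3 to the left in both panels, and BAK1 is called in the left panel but not in the right.

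The order of the levels per kb differed between the lines. Over its 8 libraries SK-LMS-1 ran from BCL2L1 at 93.3 ± 16.0 (SD, n = 8) CPM per kb through MCL1 at 48.3 ± 6.07, BAX at 40.9 ± 7.52 and PMAIP1 at 38.8 ± 7.27 to BCL2L11 at 9.92 ± 1.60, BID at 8.96 ± 1.63, BAK1 at 3.68 ± 0.75, BBC3 at 2.14 ± 0.77 and BCL2 at 0.744 ± 0.166. Neighbors in this order overlapped from MCL1 through BAX to PMAIP1, from BCL2L11 to BID, and from BAK1 through BBC3 to BCL2, while every BCL2L1 value, from 71.0 upwards, stood above every value of the others. Over its 4 libraries SK-UT-1B ran from MCL1 at 38.3 ± 4.44 (SD, n = 4) CPM per kb through BAX at 30.5 ± 5.03, BCL2L1 at 17.1 ± 2.55 and BID at 12.6 ± 3.04 to BBC3 at 8.43 ± 3.43, PMAIP1 at 8.31 ± 5.93, BAK1 at 8.12 ± 2.48, BCL2 at 3.95 ± 0.97 and BCL2L11 at 3.15 ± 1.03. There all neighbors among these 9 overlapped except BAX with BCL2L1 and BAK1 with BCL2. BAX has the shortest MANE Select transcript of the set, at 795 bases, and the order depends on the length used. On the union of exons PMAIP1 ranked above MCL1 and BAX in SK-LMS-1. In SK-UT-1B that order was MCL1, BCL2L1, BAX, BAK1, PMAIP1, BID, BBC3, BCL2L11 and BCL2, with BAK1 above BID and BCL2 last. The summed CPM per kb of the 3 survival genes was 2.51 to 4.29 times that of both effectors in SK-LMS-1 and 1.25 to 2.19 times in SK-UT-1B, and on the union of exons it was 4.44 to 6.67 and 1.61 to 2.84 times.

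After treatment, none of the 10 members was called by edgeR in any of the 3 comparisons, and none had an unadjusted p under 0.05. The background was 0.559% of tested genes for the combination in SK-UT-1B, 0.251% for MK-0752 in SK-LMS-1 and 0.0237% for the combination in SK-LMS-1, shares so low that a count of 0 of 10 is not particular to these genes. DESeq2 called none of them either. In SK-UT-1B the median log2FC of the 9 fitted members was 0.20, with 6 of 9 above 0, against a median of 0 over all tested genes. In SK-LMS-1 it was -0.16 after MK-0752, with 3 of 9 above 0, against 0, and 0.09 after the combination, with 8 of 9 above 0, against 0.03. The smallest unadjusted p were 0.0550, 0.169 and 0.103. The intervals were wide for the low BH3-only genes and reached a log2FC of 2.25 for PMAIP1 in SK-UT-1B, so a missing call does not show that these transcripts stayed the same. Fewer cells expressing a gene and less RNA per cell cannot be told apart in bulk libraries, and transcripts carry no information on the cleavage, binding or turnover of these proteins.

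**Figure D5:**
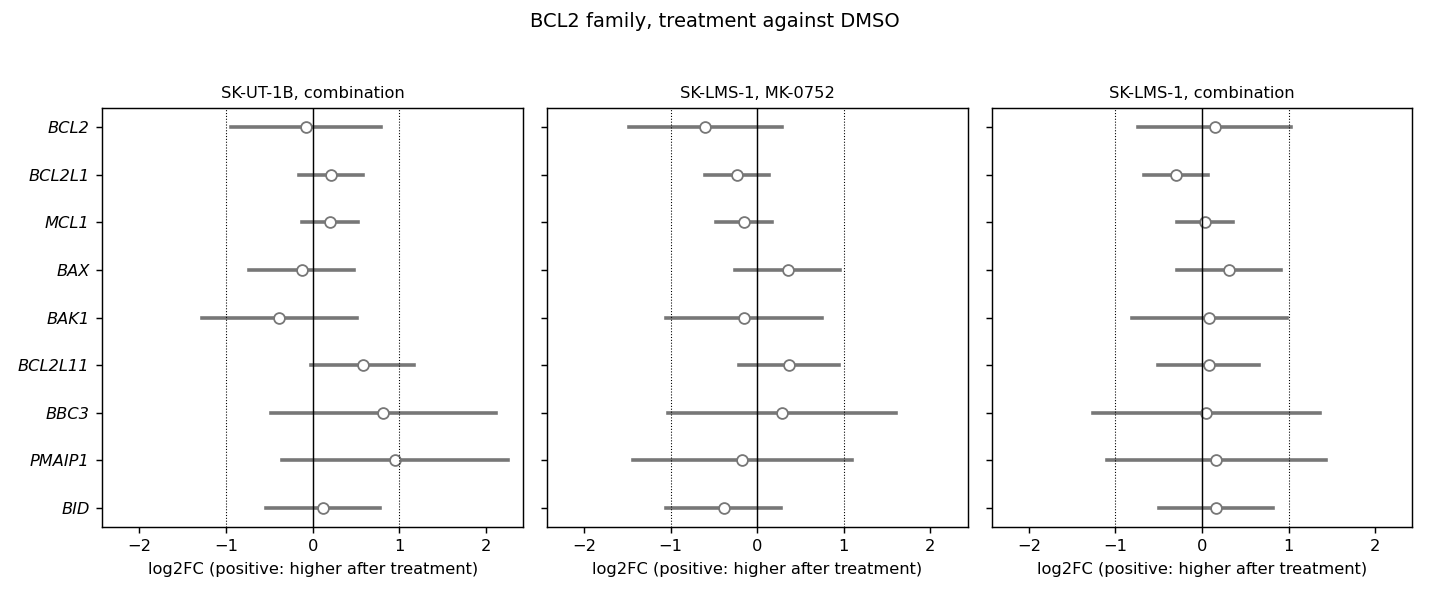
Treatment log2FC with 95% intervals for the 9 members other than BIK in the 3 comparisons with DMSO. Open gray points are not called, and dotted lines mark a log2FC of -1 and 1. No member is called, MCL1 has the narrowest interval in each panel, and PMAIP1 in SK-UT-1B has the highest point, at 0.95.

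The combination effects of the lines were compared by an interaction term. No member was called, against 0.232% of tested genes, and none had an unadjusted p under 0.05. BCL2L1 came nearest, with a log2FC of 0.21 in SK-UT-1B and -0.30 in SK-LMS-1 and a difference of 0.51 (95% interval -0.01 to 1.03), at an edgeR adjusted p of 0.652. The difference was 0.79 (-1.03 to 2.60) for PMAIP1, 0.77 (-1.08 to 2.61) for BBC3 and 0.50 (-0.33 to 1.33) for BCL2L11. With 1 library left out it ranged from 0.24 to 1.44 for BBC3 and from 0.10 to 1.03 for BCL2L11. The PMAIP1 difference was 1.47 without SK-UT-1B DMSO library 4-2, 1.40 without combination library 3-3 and -0.33 without combination library 3-1. The first 2 were called with the filter on low counts applied again, but not over the same genes, at edgeR adjusted p of 0.789 and 0.236. The effects of MK-0752 and of the combination in SK-LMS-1 did not give a called member by edgeR or DESeq2, against 0.0379% of tested genes by edgeR, and no member had an unadjusted p under 0.05 there. The DMSO sets 2 and 4 of SK-LMS-1, which received no drug, gave 0 called members, against 0% of tested genes, with 0 members and 1197 of all tested genes at an unadjusted p under 0.05, and DESeq2 called 33 genes there, none of them a member.

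The members' neighbors in the pathway were counted in 10 lists of 60 genes, of which 56 were tested. None was called after any treatment. The background was 0.559% of all tested genes for the combination in SK-UT-1B, 0.251% for MK-0752 and 0.0237% for the combination in SK-LMS-1. Between the lines 22 of the 56 were called after DMSO, against 31.1% of all tested genes, 10 higher in SK-LMS-1 (17.0%) and 12 lower (14.1%). After the combination 13 were called, against 25.4%, 6 higher (15.6%) and 7 lower (9.88%). The background shares between the lines apply to the counts of single lists that follow. Their few genes are described and not set apart from the rest. The median log2FC over the 56 was -0.10 after DMSO, against 0 over all tested genes. The genes named next are those with the largest differences in each list.

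Of the other 3 survival genes, BCL2A1, a target of NF-kB, was the called one. No count of it was found in the 4 SK-UT-1B libraries, and SK-LMS-1 held 56 to 416. No fold is given for genes at 0 in a whole line, since low genes were at 0 more often than counting error gives. BOK, an effector that acts without BAX and BAK1, was lower in SK-LMS-1, with a log2FC of -1.91 after DMSO and -1.60 after the combination. Of 3 other BH3-only genes none was called, and of 5 tested atypical relatives BCL2L12 was lower (-1.10) after DMSO, at -0.43 and not called after the combination. Of the 7 genes of mitochondrial release and the apoptosome, 2 were lower in SK-LMS-1 in both comparisons. APAF1, the scaffold of the apoptosome, was at 87.3 and 88.7 CPM in SK-UT-1B and at 29.0 to 51.3 CPM in SK-LMS-1 after DMSO, with a log2FC of -1.14, and ENDOG, a mitochondrial nuclease, had a log2FC of -1.39.

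Of the 7 caspases tested, 4 were called after DMSO, against 31.1% of all tested genes, 2 in each direction. CASP2 was lower in SK-LMS-1 (-1.29), CASP9, the initiator that APAF1 activates, was higher (1.05) but was at 0.35 and not called after the combination, and CASP10, a death receptor caspase, was at 0 throughout SK-UT-1B and at 3.08 to 12.1 CPM in SK-LMS-1 after DMSO. Of the 5 inhibitors of apoptosis tested, XIAP, which blocks caspases directly, was higher in SK-LMS-1, at 178 to 195 CPM against 85.6 and 98.3 CPM, with a log2FC of 1.02 and an edgeR adjusted p of 5.40e-06. BIRC3, another target of NF-kB, was higher with a log2FC of 6.06, from 0 and 45 counts in SK-UT-1B to 807 to 1839 in SK-LMS-1. BIRC5 (survivin), which also serves mitosis, was lower after DMSO (-1.46), and its log2FC of -0.99 after the combination was under the fold threshold.

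After DMSO 4 of the 9 death receptor genes tested were higher in SK-LMS-1, against 17.0% of all tested genes, and 1 was lower, against 14.1%. TNFSF10 (TRAIL) was at 0 throughout SK-UT-1B and at 2.15 to 9.05 CPM in SK-LMS-1 after DMSO, TNFRSF10A, a TRAIL receptor, was lower (-2.66), and TRADD, an adaptor, was higher (1.90). After the combination TRADD was at 1.62 with an edgeR adjusted p of 0.0632 and not called. FAS was higher by 1.56 after DMSO and by 1.14 after the combination. After DMSO 1 of the 9 upstream transcription factors was higher in SK-LMS-1 and 4 were lower, against the same 17.0% and 14.1%. TP73, a p53 relative, had 0 counts in all 8 SK-LMS-1 libraries and 777 and 945 in SK-UT-1B after DMSO. FOXO1, a factor known to drive BCL2L11, was lower in SK-LMS-1, with a log2FC of -1.91 after DMSO and -3.34 after the combination. DDIT3 was higher in SK-LMS-1 by 2.35 after DMSO, with an edgeR adjusted p of 0.0212, but after the combination it was at 0.43 with an adjusted p of 0.716. None of the 7 genes of protein turnover and partners was called in either comparison.

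For each member the tested gene with the most similar pattern over the 12 libraries was found by Pearson's r of log2 CPM. The candidates were 12212 genes with a mean of at least 100 counts. This is a description only, since r does not separate differences between the lines from those within a line. BCL2L1 was most like ITPR3 (r = 0.999), PMAIP1 like POT1 (0.993), BCL2 like GNL3L (0.990) and BCL2L11 like PPP1R9A (0.985). BAK1 was most like TRIM47 (0.970), BBC3 like ZBED6 (0.961), BAX like CASTOR2 (0.943), MCL1 like SRR (0.937), BID like HSPE1 (0.895) and BIK like GUF1 (0.891).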

How the data were processed

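RNA was sequenced from 12 libraries with a stranded kit after depletion of ribosomal RNA, as single-end reads of 75 bases. The authors trimmed reads with Trim Galore 0.3.7, aligned them to hg38 with STAR 2.7.9a, and removed ribosomal reads with SortMeRNA. The values deposited are the raw counts that STAR gives for each gene. The annotation, the strand setting and any removal of duplicate reads are not given in the sources used here. If duplicate reads were kept, low counts vary more than counting error alone gives.

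Counts were tested with edgeR 4.0.16 in R 4.3.3 (TMM, filterByExpr, robust quasi-likelihood F test, Benjamini-Hochberg adjustment over 21114 genes) in 1 model of 6 groups of 2 libraries, and the SE is the log2FC divided by the square root of F. DESeq2 1.42.0, other size factors, filters, controls and libraries were alternatives. All 10 members were named in each comparison. Genes of the other lists were named when called after a treatment, or, between lines, as the 3 largest called differences per list among genes whose higher group averaged 50 counts or more. BIK was left without fold changes, and exon union lengths, the DMSO value of FAS, ATF4, DDIT3 and TNFRSF10B beside PMAIP1 were chosen after the data were seen. The members and lists were chosen with earlier results of these data known. The test was tried on simulated data, and the outcome of that trial is not reported here. Positions came from GENCODE v44, in which 60507 of the 60649 identifiers were found without their version, and promoters from RefSeq on GRCh38.p14, where 8 of 10 members matched by symbol.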

Additional observations from a re-analysis of the deposited data

How the results depend on the processing

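The number of members called stayed within 1.5 times its main value under every alternative in 5 of the 8 comparisons, and no setting other than leaving out a library changed a count of 0. The planned fits without a library applied the filter on low counts again and so tested 24346 to 24756 genes in place of 21114. After these values were seen, the same fits were made on the 21114 genes. Over both kinds, leaving out 1 library gave 0 to 1 members called for the combination in SK-UT-1B and 0 to 1 for the difference of the combination effects (PMAIP1, the latter only with the filter applied again), and 3 to 5 between the lines after the combination. After DMSO 5 to 6 were called over all settings that kept the fold threshold. Without that threshold 7 had an edgeR adjusted p under 0.05, and the added member was MCL1.

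Of 891 values of single members' log2FC over all settings, 816 kept their direction and call, 17 lost the call, 6 were classed as stronger and 52 changed sign. The last were all for values that were not called. With all 4 DMSO libraries as control, PMAIP1 was at 0.070 after MK-0752, and PMAIP1, BCL2 and BID were at -0.077, -0.018 and -0.090 after the combination in SK-LMS-1, where MCL1 was at -0.0071 with a mean of at least 50 counts as filter. With 1 library left out, the log2FC in SK-UT-1B ranged from -0.47 to 0.41 for BCL2, -0.024 to 0.39 for BCL2L1, -0.44 to 0.11 for BAX, -0.72 to 0.033 for BAK1, -0.19 to 1.64 for PMAIP1 and -0.35 to 0.44 for BID. After MK-0752 it ranged from -0.47 to 0.23 for BAK1 and -0.44 to 1.76 for BBC3. After the combination in SK-LMS-1 it ranged from -0.13 to 0.39 for BCL2, -0.055 to 0.16 for MCL1, -0.044 to 0.25 for BAK1, -0.076 to 0.27 for BCL2L11, -0.33 to 0.56 for BBC3 and -0.15 to 0.59 for PMAIP1. BAX between the lines after DMSO ranged from -0.054 to 0.35, and the difference of combination effects from -0.61 to 0.26 for BCL2, -0.33 to 1.47 for PMAIP1 and -0.52 to 0.31 for BID. The cause was not tested.

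Counts of called genes over the whole table moved more. In the order of the combination in SK-UT-1B, MK-0752, the combination in SK-LMS-1, the difference of the combination effects between lines, that of MK-0752 and the combination, and the DMSO sets, edgeR called 118, 53, 5, 49, 8 and 0 genes and DESeq2 called 376, 131, 36, 148, 40 and 33. Without the filter the counts were 420, 175, 73, 303, 89 and 76, with a mean of at least 50 counts 81, 35, 1, 24, 3 and 0, and with only the libraries of the comparison 0, 99, 0, 20, 27 and 0. With 1 library left out they ranged over the same genes from 140 to 812, 14 to 45, 0 to 29, 21 to 498, 3 to 22 and 0 to 39, and with the filter applied again from 328 to 1056, 116 to 270, 62 to 247, 282 to 828, 70 to 237 and 79 to 327. The line counts of 6562 and 5372 stayed within 1.5 times in all settings.

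The second numbers of the libraries were used as a replicate block for the combination in SK-LMS-1, with 0 members called. The deviations of same-numbered libraries correlated at 0.00243 over 13522 genes in 2 pairs. With 2 libraries per group this is a single contrast, so it cannot decide whether the numbers pair the libraries. The block called 2 of all genes in place of 5. No paired analysis was possible for the other comparisons because their groups share fewer than 2 numbers or differ in line. Counts were low for BIK, at or near the floor of 3 counts, and for BBC3 in SK-LMS-1, at 39 to 156 counts. Whether depth limits these values was not tested.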
